A study of Homo sapiens with 3 samples.

Results

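The mitochondrial ribosomal proteins are the nuclear-encoded proteins of the ribosome that works inside mitochondria. They were taken as every gene row on a full chromosome whose symbol is MRPL or MRPS followed by a number and, in the MRPS18 family, a letter. This rule found 78 genes, 49 named MRPL and 29 named MRPS, of 39320 rows. RNA was sequenced in 3 libraries labelled as wild-type HepG2, a human liver cancer cell line, replicates 1 to 3. These libraries are of 1 condition, so the question they can answer is how strongly each of these genes was expressed and how closely the libraries matched. The labels do not say whether the replicates came from separate cultures, and the spread between them may be technical. The values are from bulk RNA, in which fewer cells and less RNA per cell cannot be told apart.

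Mitochondria make a small set of respiratory chain proteins from their own DNA, and a dedicated ribosome translates them. Its small subunit reads the mRNA and its large subunit joins the amino acids and passes the new protein towards the inner membrane. Part of its proteins have counterparts in bacterial ribosomes, while others are found only in mitochondria. All of them are made in the cytosol and imported, while the 2 ribosomal RNAs are encoded in mitochondrial DNA. Inherited defects in several of these proteins cause respiratory chain deficiency, and the liver, which is rich in mitochondria, is among the organs affected.

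The unit throughout is TPM, in which the authors scaled each gene for its length and every library to the same total, so that levels of different genes can be set side by side. The tables hold no read counts, so the depth is unknown. As a relative measure of it, coverage divided by FPKM reached at most 13.3, 12.8 and 11.5 in replicates 1, 2 and 3. The mitochondrial tRNA gene TRNC took 16.9% to 17.2% of all TPM in each library. The labelled cell type was checked with 10 genes for proteins that hepatocytes secrete. Of these, 8 stayed under 1 TPM throughout, 5 of them (SERPINA1, FGB, APOB, APOA1 and ALB) being listed at 0. The other 2 were VTN, with 23.7, 22.7 and 23.6 TPM, and RBP4, with 11.6, 10.6 and 10.8 TPM. The sum of all 10 was 33.6 to 35.3 TPM. All 5 housekeeping genes checked (ACTB, GAPDH, EEF1A1, PPIA and TBP) had at least 10 TPM. Thus 8 of the 10 hepatocyte genes go against the label, and HepG2 is used here only as the name that the libraries carry.

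All 78 members were expressed. Each had at least 10 TPM in all 3 libraries, against 20.7% of all rows, and therefore also at least 1 TPM, against 33.8% of all rows. The median member had 79.3, 75.6 and 75.6 TPM in replicates 1, 2 and 3. This median, 76.5 TPM by the means of the 3 libraries, was higher than 85.5% of the 13753 rows whose mean reached 1 TPM. Together the members made up 0.782%, 0.797% and 0.798% of all TPM.

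The members differed widely from each other. Mean levels ran from 16.2 TPM for MRPS31 to 368 TPM for MRPS34, a 22.7-fold span. The level at the 90th percentile of the members was 8.77 times that at the 10th. The 10 members with the highest means, 8 of the large and 2 of the small subunit, held 35.2% of the summed level, and the 10 with the lowest held 2.92%. A total of 29 members were above 100 TPM, and 12 were below 30 TPM.

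**Figure D1:**
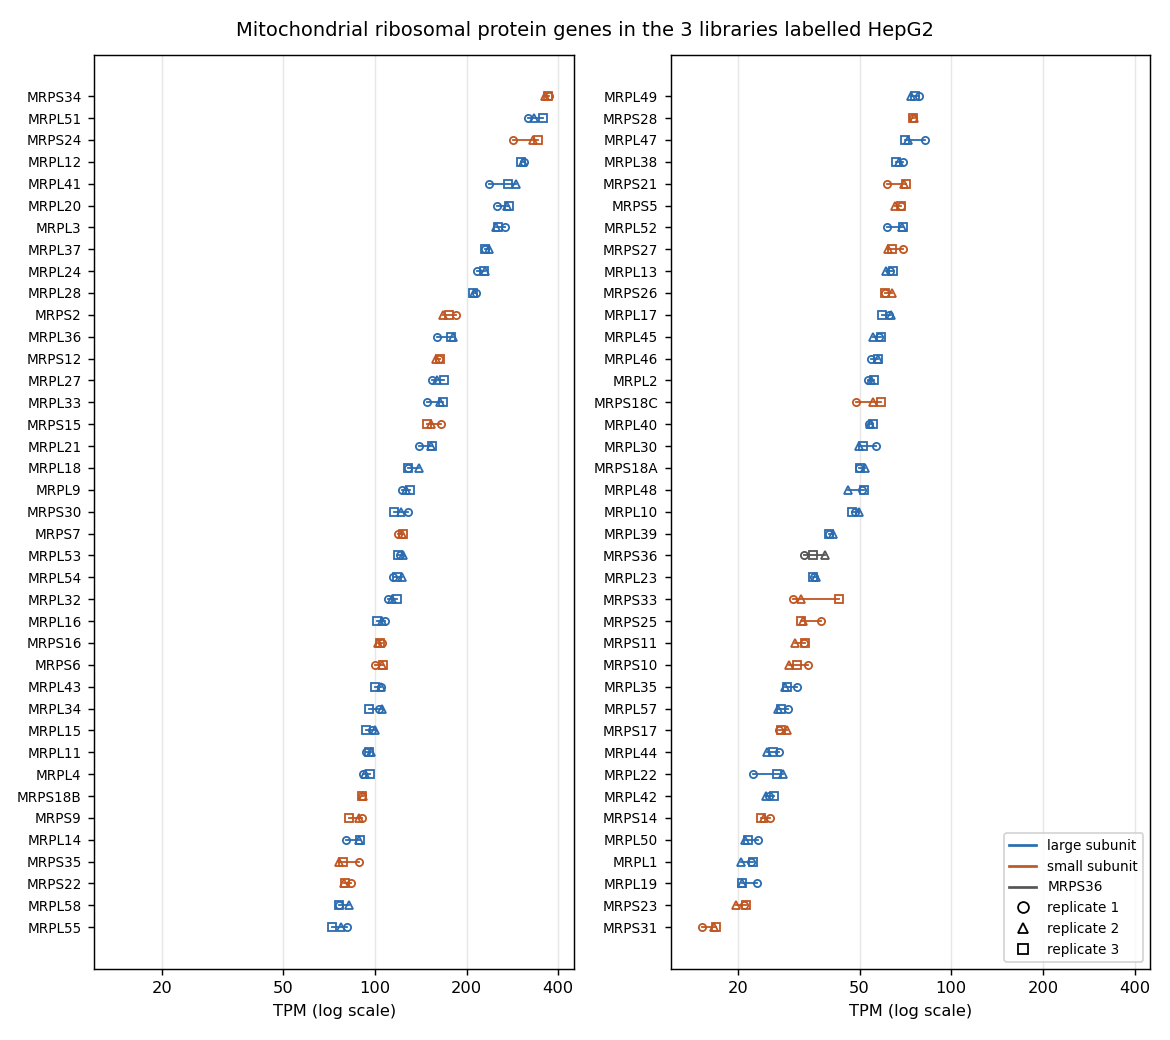
TPM of each of the 78 members (log scale) in replicates 1 to 3 (circle, triangle and square), ordered by mean from the top left to the bottom right, with a line from the lowest to the highest library. The spread between genes, from 16.2 TPM for MRPS31 to 368 TPM for MRPS34, is far wider than the lines, the longest of which on the log scale belongs to MRPS33.

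MRPS34, a mitochondria-specific protein of the small subunit, lies on chromosome 16 from 1771889 to 1773151 (GRCh38, minus strand). It had 374, 361 and 369 TPM in replicates 1, 2 and 3. Every one of these lay above every TPM value of the other members, but by coverage MRPS34 and MRPL51 overlapped. MRPL51, a mitochondria-specific large subunit protein on chromosome 12 (6491886 to 6493262), followed with 318, 332 and 357 TPM. MRPS24, the small subunit protein that lines the path by which the mRNA enters, had 284, 330 and 342 TPM. MRPL12, which forms the stalk that recruits translation factors to the large subunit, had 309, 307 and 301 TPM. The values of MRPS24 overlapped with those of MRPL51 and of MRPL12, so that its place is not fixed by these libraries, while all values of MRPL51 were above those of MRPL12.

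The next members were all of the large subunit. MRPL41 had 237, 290 and 273 TPM, MRPL20 had 251, 272 and 276 TPM, and MRPL3 had 267, 249 and 253 TPM. MRPL3 lies near the peptidyl transferase centre, where the peptide bond is made. MRPL37 had 230, 237 and 230 TPM, MRPL24 had 216, 230 and 228 TPM, and MRPL28 had 215, 212 and 209 TPM. No value of MRPL28 overlapped with the gene below it, MRPS2, which had 185, 167 and 175 TPM. Of the 77 pairs of neighbours in the order of means, 63 had overlapping values in the 3 libraries and 14 did not.

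At the other end of the order, MRPS31 (chromosome 13, 40729296 to 40771211) had 15.2, 16.6 and 16.9 TPM. MRPS23 had 20.8, 19.6 and 21.1 TPM, and all its values were above those of MRPS31. Both are mitochondria-specific proteins of the small subunit. MRPL19 had 23.1, 20.5 and 20.6 TPM, MRPL1 had 22.0, 20.3 and 22.4 TPM, and MRPL50 had 23.3, 21.0 and 21.5 TPM. MRPL1 belongs to the mobile stalk near the site where used tRNA leaves. MRPS14, MRPL42, MRPL22, MRPL44 and MRPS17 completed the lowest 10, with means of 24.5, 25.3, 25.7, 26.0 and 27.9 TPM. MRPL42 had 25.3, 24.6 and 26.1 TPM, and MRPS17 had 27.2, 28.9 and 27.6 TPM. Even the lowest of these genes, MRPS31, exceeded 51.3% of the rows whose mean reached 1 TPM.

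The stretches of promoter that follow are shown because they let the highest and the lowest members be compared by sequence. Promoter windows of RefSeq on GRCh38.p14, from 250 bases before to 50 bases after the start of the gene, were matched for 69 of the 78 members. The other 9 were MRPL2, MRPL10, MRPL13, MRPL15, MRPL21, MRPL23, MRPL35, MRPS28 and MRPS36. Where several starts were listed, the one nearest the deposited row was used, and 49 of the 69 lay within 50 bp of it. Both strands were searched for 3 sets of letters that stand for known regulators of mitochondrial and housekeeping genes. These were CCGGAAG for the ETS family, which includes GABPA, AANATGGCG for YY1, and, for NRF1, GCGC followed by any base and then by TGCGC. For each motif, the highest and the lowest member with a match ending no more than 30 bases into the gene and a start within 50 bp of the deposited row are given 5′ to 3′ on the strand of the gene, with the matches in capitals.
MRPS34 (ETS, chr16:1773117-1773183, minus strand): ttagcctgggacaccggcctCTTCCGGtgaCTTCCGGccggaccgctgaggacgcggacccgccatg
MRPS31 (ETS, chr13:40771186-40771252, minus strand): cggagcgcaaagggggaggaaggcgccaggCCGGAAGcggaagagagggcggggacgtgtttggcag
MRPS24 (YY1, chr7:43869488-43869528, minus strand): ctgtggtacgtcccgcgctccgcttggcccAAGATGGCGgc
MRPS14 (YY1, chr1:175023396-175023441, minus strand): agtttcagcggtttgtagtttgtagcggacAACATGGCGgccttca
MRPS33 (NRF1, chr7:141015068-141015137, minus strand): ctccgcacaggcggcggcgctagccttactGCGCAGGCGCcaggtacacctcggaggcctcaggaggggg
MRPL57 (NRF1, chr13:21176554-21176623, plus strand): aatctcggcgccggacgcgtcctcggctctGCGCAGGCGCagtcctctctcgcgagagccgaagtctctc

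In MRPS34, the highest member, CCGGAAG was found on the opposite strand at 3 places, beginning 71, 29 and 19 bases before the start, and the last 2 are in the stretch printed. In MRPS31, the lowest member by TPM, the same letters stand on the gene's own strand and begin 32 bases before the start. The YY1 letters of MRPS24, at 319 TPM, begin at base 20 of the gene, and those of MRPS14, at 24.5 TPM, at base 15. So the ETS and the YY1 letters were present in members at both ends of the range of levels. The NRF1 pair printed does not span that range. MRPS33 had a mean of 35.1 TPM, with a match beginning 155 bases before the start, and MRPL57 one of 28.0 TPM, with a match beginning 74 bases before it. Members with NRF1 letters and a higher level, such as MRPL36 at 172 TPM and MRPS9 at 87.3 TPM, did not meet the limit on the start.

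The ETS letters were found in 29 of the 69 member promoters, or 42.0%. They were present in 22.5% of the promoters of all genes whose mean reached 10 TPM and in 10.7% of all 27305 promoters. The YY1 letters were found in 18 member promoters, or 26.1%, against 8.47% and 3.36%. The NRF1 letters were found in 8, or 11.6%, against 13.8% and 6.32%, so their share among members was not above that of the genes with at least 10 TPM. Matches of different motifs did not overlap in any member promoter. A match is a description of letters and does not show binding. The YY1 letters also hold ATG, the letters of a start codon, and whether the matches lie at start codons was not tested.

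Of the 20 YY1 matches, 16 lay after the start of the gene and 17 within 50 bases of it. The 39 ETS matches had a median position 22 bases before the start. At least 1 of the 3 motifs was found in 47 of the 69 promoters. MRPL38, MRPL52, MRPS10 and MRPS18A held both ETS and YY1 letters. Neither was counted over the other promoters, so this shows nothing particular to the members. Members with ETS letters had a median of 78.2 TPM and those without had 83.6 TPM. The medians were 67.1 and 81.1 TPM with and without YY1 letters, and 59.6 and 81.1 TPM with and without NRF1 letters. For ETS letters this order turned when only the part of the window nearest the start was searched, at 80.8 TPM with and 79.0 TPM without them, so no order of levels by motif is drawn.

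By subunit, the 51 members of the large subunit had a median of 78.2 TPM and the 26 of the small subunit 71.2 TPM. MRPS30 and MRPS18A carry small subunit names but are part of the large subunit and were counted there. The difference of the median log2(TPM + 1), large minus small, was 0.16, 0.18 and 0.06 in replicates 1, 2 and 3, or 0.14 ± 0.06 (SD, n = 3). It had the same sign in every library but was small beside the SD of 1.09 between single members on that scale. The large subunit members summed to 5326, 5487 and 5454 TPM and the small subunit members to 2457, 2442 and 2489 TPM.

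Within both subunits, the proteins with a bacterial counterpart had the higher median. In the large subunit it was 96.2 TPM for 30 such members and 66.6 TPM for 21 mitochondria-specific members. In the small subunit it was 81.1 TPM for 16 members and 63.4 TPM for 10. The ranges overlapped almost entirely, as MRPS34 at 368 TPM and MRPS31 at 16.2 TPM are both mitochondria-specific. MRPS36, which is also known as part of a metabolic enzyme complex and was placed in neither subunit, had 32.9, 38.6 and 35.2 TPM.

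**Figure D2:**
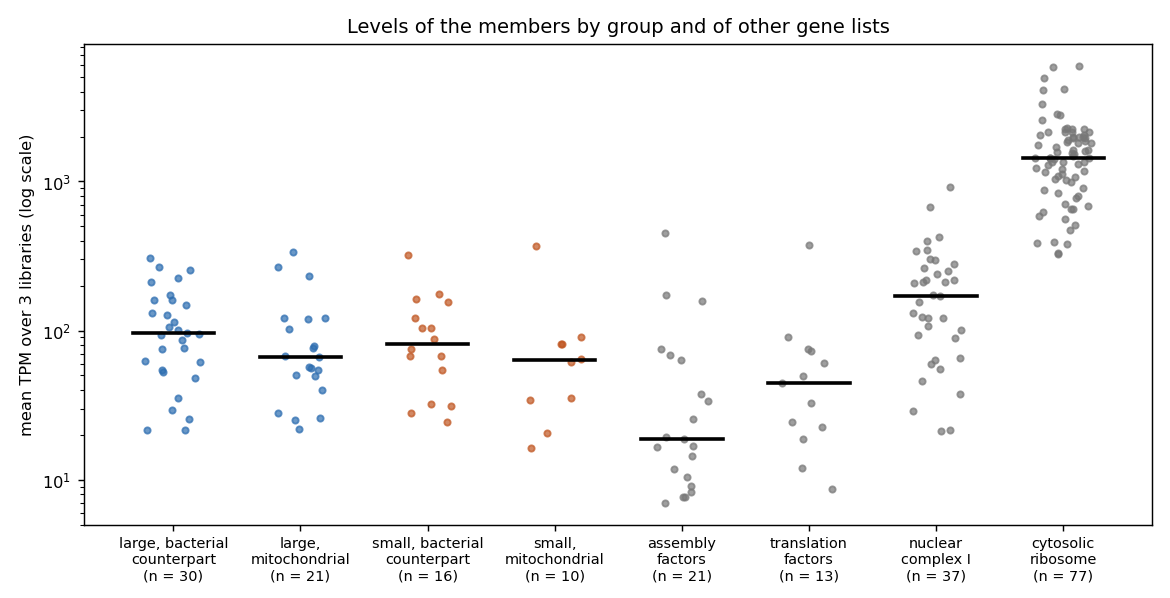
Mean TPM over 3 libraries (log scale) of each member by subunit and by the presence of a bacterial counterpart, beside assembly factors, translation factors, nuclear subunits of complex I and cytosolic ribosomal proteins. Each point is a gene and each bar a median. The bars of the 4 member groups lie between 63.4 and 96.2 TPM, above both factor lists and below complex I and the cytosolic ribosome.

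The proteins of the stalk differed widely in level. MRPL10, which anchors MRPL12, had 48.1, 49.7 and 47.1 TPM, and no value came near those of MRPL12. The log2 ratio of MRPL12 to MRPL10, on the TPM + 1 scale, was 2.64 ± 0.03 (SD, n = 3), with the same sign in 3 of 3 libraries. MRPL12 is known to be present in several copies per ribosome, and MRPL10 in one. MRPL11, at the base of the stalk, lay between them with 93.3, 96.8 and 95.8 TPM.

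The MRPS18 family holds 3 paralogs of a single bacterial protein. MRPS18C is the direct counterpart, MRPS18B is a separate small subunit protein and MRPS18A belongs to the large subunit. MRPS18B had 90.9, 91.4 and 90.5 TPM, above all values of both others. MRPS18A had 49.8, 52.1 and 50.3 TPM, and MRPS18C had 48.7, 55.4 and 58.9 TPM, so that these 2 overlapped.

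The log2 ratio of MRPS18A to MRPS18B was -0.83 ± 0.03 (SD, n = 3), with the same sign in 3 of 3 libraries. That of MRPS18B to MRPS18C was 0.74 ± 0.14 (SD, n = 3), again in 3 of 3. That of MRPS18A to MRPS18C was -0.09 ± 0.13 (SD, n = 3) and ranged from -0.23 to 0.03, so no difference in either direction was shown. These pairs and that of MRPL12 and MRPL10 were tested by permuting signs over the libraries (exact, two-sided), with p = 0.25 where the sign was kept and p = 0.5 for MRPS18A and MRPS18C. After Benjamini-Hochberg adjustment over the 4 pairs these were 0.333 and 0.5. With 3 libraries p cannot fall below 0.25, so none of the ratios could pass a threshold of 0.05.

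Around the peptidyl transferase centre, MRPL3 was the highest, followed by MRPL27 with 154, 160 and 168 TPM and MRPL16 with 108, 106 and 102 TPM. MRPL4 had 91.3, 92.5 and 96.1 TPM and MRPL2 had 53.5, 54.5 and 55.7 TPM. The values of these 5 genes did not overlap. MRPL2, MRPL16 and MRPL27 are counterparts of bacterial proteins that support the transfer of the peptide.

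Along the tunnel by which the new protein leaves, MRPL24 stood at 225 ± 7.42 TPM (SD, n = 3) and the other members far below it. MRPL45, which ties the ribosome to the inner membrane, had 57.9, 55.4 and 58.9 TPM. MRPL23 had 35.3, 35.9 and 35.2 TPM. MRPL44, which has a ribonuclease-like fold, had 27.1, 24.8 and 26.0 TPM, and MRPL22 had 22.3, 28.0 and 26.7 TPM, so that the last 2 overlapped. MRPL58, a hydrolase built into the large subunit that can release stalled peptides, had 76.2, 82.3 and 76.2 TPM.

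In the small subunit, MRPS24, MRPS2 and MRPS12, proteins of the mRNA path and of the decoding site, lay in the upper part of the order. MRPS12, which takes part in accurate decoding, had 162, 159 and 164 TPM. MRPS5 was lower, with 68.5, 65.4 and 68.4 TPM. MRPS24 was 319 ± 30.5 TPM and MRPS5 67.4 ± 1.79 TPM (SD, n = 3), although both line the mRNA entrance.

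Several small subunit genes are known from inherited respiratory chain deficiency, and their levels spanned most of the range. MRPS7 had 119, 123 and 124 TPM, MRPS16 had 106, 103 and 104 TPM, and MRPS22 had 83.6, 78.9 and 80.0 TPM. MRPS28 was nearly the same in every library, with 74.8, 75.2 and 74.9 TPM. MRPS25 had 37.3, 32.6 and 32.1 TPM, while MRPS14 had 25.4, 24.4 and 23.7 TPM. With MRPS34 at the top and MRPS23 next to the bottom, these genes share no common level.

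The 5 ribosomal proteins that carry other symbols fell within the range of the members. AURKAIP1 had 229 ± 5.90 TPM, DAP3 162 ± 4.15 TPM, GADD45GIP1 116 ± 7.26 TPM, CHCHD1 99.5 ± 5.10 TPM and PTCD3 20.5 ± 1.64 TPM (SD, n = 3). PTCD3, an RNA-binding protein of the small subunit, was thus close to MRPS23. The ribosomal RNAs, read from mitochondrial DNA, were listed at 854 ± 14.2 TPM for RNR1 of the small subunit and 3696 ± 93.6 TPM for RNR2 of the large subunit (SD, n = 3). The labels give polyA RNA as the molecule, and its part in these levels was not tested.

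All 21 listed factors that assemble this ribosome were above 1 TPM in every library, and 15 were above 10 TPM. Their median was 18.8 TPM, lower than that of the members. C1QBP, at 451 ± 20.6 TPM (SD, n = 3), was above all members, while RBFA, which helps to mature the small subunit RNA, had 6.89, 6.93 and 7.19 TPM. The 13 listed translation factors had a median of 44.2 TPM. The elongation factor TUFM, which brings tRNA to the ribosome, had 372 ± 3.41 TPM, its exchange factor TSFM 60.7 ± 1.30 TPM, and the termination factor MTRF1 8.65 ± 0.266 TPM (SD, n = 3).

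The 77 cytosolic ribosomal protein genes had a median of 1442 TPM, and the lowest of them, at 326 TPM, was above all members but MRPS34 and MRPL51. The spread between genes was an SD of 0.92 on the log2(TPM + 1) scale in the cytosolic ribosome and of 1.09 in the members. The 37 nuclear subunits of complex I, the first enzyme of the respiratory chain, had a median of 170 TPM and an SD of 1.29. The members thus lay well below the other ribosome, and nearer to complex I.

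The libraries agreed closely in the members. None of the 78 had a range of log2(TPM + 1) above 1, but so large a range was also rare among the 8419 rows whose mean reached 10 TPM, at 23 rows or 0.273%, so the count shows little about the members. The median range was 0.10 in the members and 0.13 in those rows. The median coefficient of variation was 3.75% in the members and 4.88% in those rows. MRPS28, with a coefficient of 0.273%, and MRPS18B, with 0.481%, varied least.

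The 5 members with the largest range were MRPS33, MRPL22, MRPL41, MRPS18C and MRPS24. MRPS33 had 30.3, 32.2 and 42.7 TPM, a range of 0.48, and replicate 3 alone was high. This rests on the deposited value used, since its coverage, divided by the highest coverage per FPKM of each library, was 4.86, 5.40 and 5.63, a log2 range of 0.21 that put it at place 9 of the members. MRPL22 had a range of 0.32 and MRPL41 of 0.29, and in both replicate 1 was the lowest. MRPS18C and MRPS24 each had a range of 0.27, again with replicate 1 the lowest. The range was below 0.2 in 67 members.

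Replicate 1 differed from the others in a way that went with transcript length. Members were higher in replicate 1 than in the mean of replicates 2 and 3 in 40 cases and lower in 38, with a median log2 ratio of 0.00. Among the 7828 protein-coding genes whose mean reached 10 TPM, 5797 were higher and 2031 lower, with a median of 0.07. Of the 12 members with a canonical transcript of under 750 nt in GENCODE v44, 10 were lower in replicate 1, with a median of -0.11. Of the 13 members of 2500 nt and over, 10 were higher, with a median of 0.04. Among the 7828 genes, 196 of 250 under 750 nt were lower and 4077 of 4799 of 2500 nt and over were higher. Their medians were -0.11 and 0.10. Spearman's rho between length and this ratio was 0.49 over 78 members and 0.46 over the 7828 genes, in which all genes come from the same 3 libraries. Replicate 1 held the lowest of the 3 values in 41.0% of members, 62.3% of cytosolic ribosomal protein genes and 81.1% of complex I genes, against 19.5% of the 8419 rows. The part of length in the differences between libraries was not tested.

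**Figure D3:**
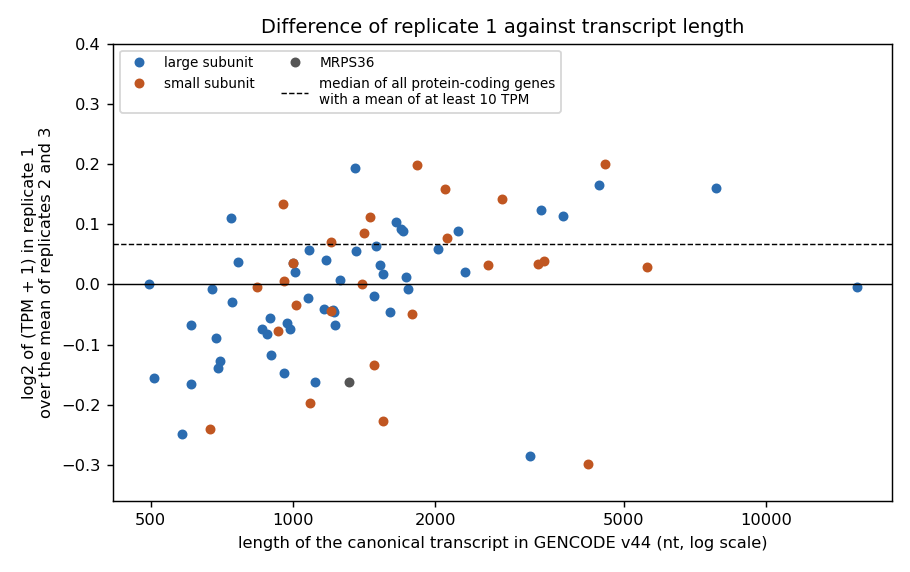
For each of the 78 members, the log2 ratio of TPM + 1 in replicate 1 to the mean of replicates 2 and 3 (vertical) against the length of its canonical transcript in nt (log scale). Short transcripts lie mostly below 0 and long ones mostly above it, and the dashed line marks the median of 0.07 of all protein-coding genes whose mean reached 10 TPM. MRPS33 and MRPL22 have long transcripts and the lowest ratios.

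Level, too, went with transcript length. Spearman's rho between the length of the canonical transcript and the mean TPM was -0.60 over the 78 members and -0.34 over the 7828 genes, both across genes, which are not independent. The median was 155 TPM in the 12 members under 750 nt and 32.2 TPM in the 13 of 2500 nt and over. MRPL41, at 582 nt, and MRPS24, at 667 nt, are short, while MRPL19, at 7825 nt, and MRPS23, at 5609 nt, are long. Exceptions were MRPL23, at 673 nt and 35.5 TPM, and MRPL3, at 1708 nt and 257 TPM. TPM divides by a length that the quantification assigned, and its part in this relation was not tested.

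Coverage, the mean depth over the gene, gave another order for some members. Its ratio to FPKM, relative to the highest in the library, was at least 0.95 in 32 members and below 0.5 in 11. These counts were not set against all rows, so they show nothing particular to the members. MRPL23 had the lowest ratio, at 0.035, and went from place 62 by TPM to place 78 by coverage. Its deposited row on chromosome 11 runs from 1947272 to 2013176, while its canonical transcript has 673 nt. MRPS9, at 0.098, went from place 34 to 76, MRPL55 from 39 to 71 and MRPL43 from 28 to 66. Levels of these genes therefore depend on which deposited value is used. MRPS34 kept place 1 by mean coverage. Divided by the highest coverage per FPKM of each library, its coverage was 162, 158 and 162, which overlapped with 150, 159 and 171 for MRPL51. MRPS31 was at place 78 by TPM and 72 by coverage. Spearman's rho between TPM and coverage over the 78 members was 0.89.

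Pseudogenes and overlapping genes could limit some single values, although the likeness of pseudogenes to the members was not measured. GENCODE v44 lists 79 pseudogenes of 36 members, with 8 for MRPS21 and 5 each for MRPL42, MRPL57 and MRPS36. Of the deposited rows of this kind, 3 were read out. These were MRPL45P2 at 5.42 ± 0.530 TPM, MRPS31P5 at 1.75 ± 0.266 TPM and MRPL42P5 at 0.242 ± 0.163 TPM (SD, n = 3). Members with pseudogenes had a median of 62.4 TPM and those without had 86.7 TPM. The deposited tables also held 8 rows of MRPS18B, MRPS36 and MRPL45 on alternate contigs, all at 0 in every library. Over the exons of all GENCODE v44 transcripts, 29 members share bases with a gene on the opposite strand and 16 with a gene on the same strand. An overlap of any size was counted, such as 3 bases of MRPL13 with MTBP. Neither these counts nor that of pseudogenes was set against all genes, so they show nothing particular to the members. MRPL53 shares 72.8% with CCDC142 on the same strand, which had 8.95 TPM. MRPL51 shares 383 exonic bases, or 27.6% of its own, with NCAPD2, which had 165 TPM. MRPS22 shares 38.9% with COPB2, which had 191 TPM, but the exons counted for MRPS22 add up to 16385 bases. Its deposited row spans only 13147 bp and its canonical transcript has 1205 nt, so that share does not describe the deposited value. Since the strand setting is not given in the sources used here, reads from shared stretches could have been assigned to either gene.

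The members lie on 21 chromosomes, with 8 each on chromosomes 1, 2 and 17. In 19 of the 78, or 24.4%, another expressed gene starts within 1000 bp before the member in the opposite direction. This compares with 14.1% of the 8419 rows whose mean reached 10 TPM. Opposite genes whose first bases overlap were not counted in either share. MRPL46 and MRPS11 form such a pair with each other on chromosome 15, with 64 bp between their deposited starts. The stretch is printed on the strand of MRPL46, with the bases between both starts in capitals, because it joins a large and a small subunit gene. It begins inside MRPS11, which is read from the opposite strand, and ends inside MRPL46.
MRPL46 to MRPS11 (chr15:88467369-88467473, minus strand): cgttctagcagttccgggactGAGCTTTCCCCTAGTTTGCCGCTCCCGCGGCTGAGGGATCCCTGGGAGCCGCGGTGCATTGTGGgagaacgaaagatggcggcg

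Although they start next to each other, both genes had different levels. MRPL46 had 54.5, 57.6 and 57.3 TPM and MRPS11 had 32.8, 30.8 and 33.0 TPM, with no overlap. YY1 letters begin at base 9 of MRPL46, in the lower-case end of the stretch.

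The other 17 divergent neighbours are not members, and the member was the higher of the pair in 13. A neighbour needed a mean of only 1 TPM, while the median member was higher than 85.5% of such rows. The same count was not made over other divergent pairs, so it shows little about these. MRPS34 was 368 TPM and EME2, which starts 71 bp away and encodes a DNA repair protein, 12.5 TPM. MRPL37 was 232 TPM and CYB5RL 6.86 TPM. MRPL49 was lower than its neighbour FAU, which encodes a cytosolic ribosomal protein, at 76.2 against 1050 TPM. MRPL18 was lower than TCP1, a chaperonin subunit, at 132 against 247 TPM, and MRPL32 lower than the proteasome gene PSMA2, at 114 against 193 TPM.

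Some pairs were close in level. MRPL30 had 56.7, 49.8 and 51.1 TPM and its neighbour MITD1 had 55.6, 54.3 and 56.7 TPM, which overlap. MRPL47 had 81.8, 72.2 and 70.5 TPM and NDUFB5, a complex I subunit, had 64.6, 67.9 and 63.7 TPM, with all values below those of MRPL47. MRPL43 starts 8 bp from TWNK, the helicase of mitochondrial DNA, and had 103 TPM against 27.0 TPM.

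**Figure D4:**
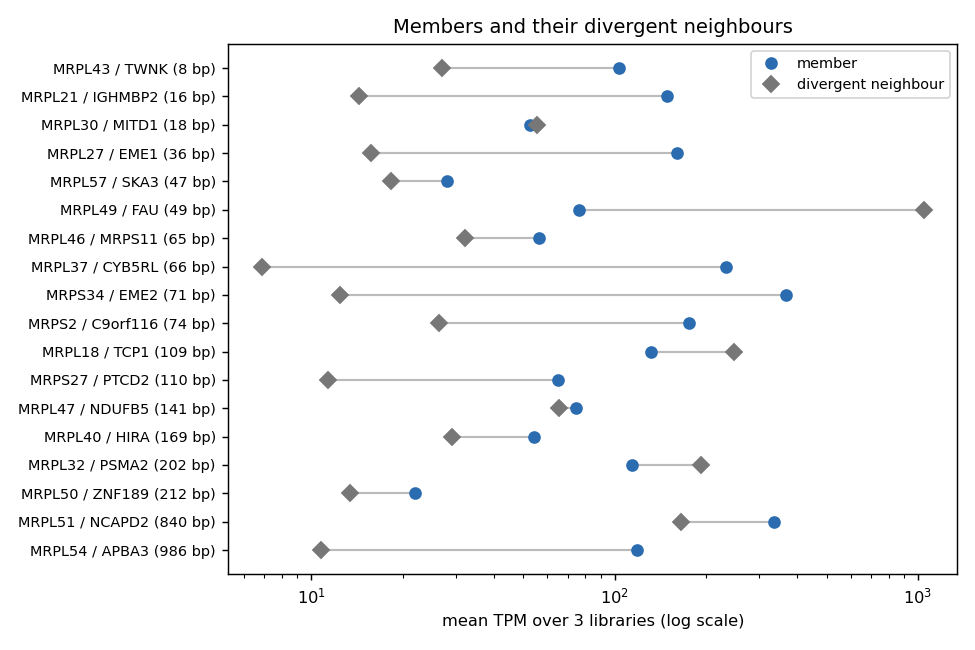
Mean TPM over 3 libraries (log scale) of members (circles) and of their divergent neighbours (diamonds). Each neighbour is an expressed gene that starts within 1000 bp before the member in the opposite direction, without overlap. The distance between the starts is in brackets, and MRPL46 is shown with its member neighbour MRPS11. The symbols of MRPL30 and MITD1 nearly coincide, while those of MRPL37 and CYB5RL, at 232 and 6.86 TPM, lie far apart.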

How the data were processed

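The data are 3 libraries labelled as polyA RNA of wild-type HepG2, sequenced in 150 bp pairs. Per the submitters' processing notes, FastQC 0.11.8, Trim Galore 0.6.2, STAR 2.6.1a and StringTie (no version named) were used with GRCh38. The annotation and strand setting are not given in the sources used here. The authors deposited TPM (scaled for length and to one total), FPKM (scaled for length and library size) and coverage (not scaled by library size).

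The tables share 43389 rows, of which 39320 on full chromosomes were used. Without counts, precision is the SD over libraries. Log values used a pseudocount of 1, and ranges were taken where the mean reached 10 TPM. Of the calculations, only the call of a range above 1 was tested on simulated data. Ratios of 4 pairs were tested by exact permutation of signs, with Benjamini-Hochberg adjustment. The members and lists were chosen with earlier results of these data known. Values by library are given for the 10 highest and 10 lowest members, the 5 with the largest range and members named by role. Other members, pseudogenes, overlapping genes and neighbours were named after their values were seen. GENCODE v44 gave transcript lengths, exons and pseudogenes, and RefSeq the promoters. Alternatives were leaving out a replicate, another pseudocount, other limits, median-of-ratios scaling, leaving out mitochondrially encoded genes, FPKM or coverage in place of TPM, and a narrower promoter window. Python 3.11.15, numpy 2.4.6, pandas 2.3.3, scipy 1.17.1 and matplotlib 3.10.9 were used.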

Additional observations from a re-analysis of the deposited data

How the results depend on the processing

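All 78 members stayed at or above the limit when it was 0.1 or 10 TPM, under both other scalings and with each replicate left out. None had a range above 1 with a replicate left out, another pseudocount, median-of-ratios scaling or a limit of 1 TPM on the mean, while the count over all rows was 23, and 15, 10 and 16 without replicates 1, 2 and 3, and 173 with that limit. The median member was 75.1 to 78.0 TPM with a replicate left out and 95.7 TPM without mitochondrially encoded genes. Its percentile was 85.4 to 85.8 with a replicate left out, 86.0 without mitochondrially encoded genes, 83.8 by FPKM and 89.4 by coverage. The SD between members was 1.07 by FPKM and 1.44 by coverage. In the part of the window nearest the start, NRF1 letters were in 4.35% of member promoters, 4.59% of all promoters and 9.45% of those of genes whose mean reached 10 TPM, so that the members were no longer above all promoters. By scaled coverage, an alternative chosen after seeing the data, the range of MRPS33 was 0.21. The large minus small difference was 0.11 to 0.17 with a replicate left out. The ratio of MRPS18A to MRPS18C was -0.16 to -0.03, and without replicate 3 it was -0.03. These differences and the other 3 ratios kept their sign with a replicate left out, by FPKM, by coverage and with another pseudocount. From 2 libraries no p under 0.5 can be had. The cause of these changes was not tested. No paired analysis was possible because every library belongs to the same condition.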
